A study of Mus musculus with 2 samples.

Results

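A group of 934 brainstem neuron nuclei was set apart in the deposited clustering of this single-nucleus RNA-seq series, as subcluster 5 of the cluster named neuron.1 at a resolution of 0.8. The nuclei were taken by those deposited labels alone, with no gene used to choose them here, and made up 466 of 9259 nuclei of the wild-type (WT) library and 468 of 9022 nuclei of the heterozygous (HET) library. Every nucleus that bore the number 5 at that resolution belonged to neuron.1. The sequencing compared the brainstem of 1 WT and 1 HET mouse, both female and both taken at postnatal day 41. HETs carried the *Scn1a* A1783V missense knock-in on 1 allele, which is a model of Dravet syndrome, a severe childhood epilepsy. The allele sits behind a floxed stop that was removed in the whole embryo by Sox2-cre, so that the knock-in is global and not limited to a cell type, and HETs and WTs were littermates on a C57BL/6J background. With 1 library per genotype there is no replicate check, so the genotypes were compared without any test. Intervals in brackets are 95% intervals for counting error only, exact Poisson for a level, conditional binomial for a ratio and Clopper-Pearson for a share, and they say nothing about the spread between mice.

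The brainstem holds the neurons that drive breathing, heart rate and arousal, and its neurons are commonly sorted by transmitter into glutamatergic cells, which load glutamate with vesicular transporters of the Slc17a family, and inhibitory cells, which use GABA made by Gad1 and Gad2 or glycine taken up by Slc6a5. *Scn1a* encodes Nav1.1, a voltage-gated sodium channel that carries much of the sodium current of fast-firing inhibitory neurons. Long intergenic non-coding RNAs (lincRNAs), the class of the gene that marks these nuclei, are transcribed and often spliced without encoding a protein. Nuclear preparations hold many of them, together with unspliced RNA of long genes.

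The gene that stood out was *Gm32647*, a lincRNA gene (ENSMUSG00000108532) at chr7:94042691-94709171 on the plus strand of GRCm38 (mm10). The GENCODE vM21 annotation gives it 2 spliced transcripts, with 2 exons and a length of 3288 bases or with 3 exons and a length of 3147 bases. The first exon of the longer transcript, at chr7:94042691-94042901, is shown because both transcripts use it, and capitals mark the bases that both share:
Gm32647-201 first exon: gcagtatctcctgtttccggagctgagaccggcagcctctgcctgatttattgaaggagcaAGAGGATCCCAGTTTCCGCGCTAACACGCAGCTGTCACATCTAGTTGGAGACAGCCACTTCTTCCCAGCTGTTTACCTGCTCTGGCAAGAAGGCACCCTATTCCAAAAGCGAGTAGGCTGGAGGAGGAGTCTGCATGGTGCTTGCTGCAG
The libraries prime at poly(A), so the annotated 3′ ends matter for what is counted. The last 60 bases of each transcript, and of the lincRNA *Gm44601* that lies within *Gm32647* on the opposite strand, follow with the polyadenylation hexamers AATAAA or ATTAAA in capitals where they occur:
Gm32647-201 last 60 bases, chr7:94349341-94349400: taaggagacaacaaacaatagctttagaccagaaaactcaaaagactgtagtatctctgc
Gm32647-202 last 60 bases, chr7:94709112-94709171: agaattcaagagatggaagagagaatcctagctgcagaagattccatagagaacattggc
Gm44601-201 last 60 bases, chr7:94368983-94369042 on the minus strand: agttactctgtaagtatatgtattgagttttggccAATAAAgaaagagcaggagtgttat
A hexamer was found in the window of *Gm44601* and in neither window of *Gm32647*, which says only that these letters are not in those 60 bases. The sources used here do not state whether reads were counted by strand, so reads of the overlapping pair could not be told apart with certainty.

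*Gm32647* reached 3424 CPM (UMIs of the gene per 1000000 UMIs) [3375, 3472] in the WT nuclei of the subcluster, from 19226 UMIs. It reached 4023 CPM [3970, 4078] in the HET nuclei, from 21469 UMIs. All other neuronal nuclei together held 402 CPM in the WT library and 234 CPM in the HET library, so that the level in the subcluster was 8.51-fold and 17.2-fold that of the rest. Because the clustering used the expression of these same nuclei, this and the other differences from the remaining neurons describe what the subcluster is and were not tested.

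The lincRNA was spread over nearly all members and did not come from a few. The median nucleus held 30 UMIs in the WT library, and 90% of its members lay between 10 and 101 UMIs. The HET median was 34 UMIs, with 90% of members between 11 and 114. A UMI was found in 466 of 466 WT members and in 461 of 468 HET members. Among other neuronal nuclei 41.7% (WT) and 41.6% (HET) had at least 1 UMI, with a median of 0, and among oligodendrocytes, which are glia, 8.75% and 11.3% did. Oligodendrocyte nuclei are shallower, so the same shares were also taken at an equal depth of 1000 UMIs per nucleus. They came to 91.2% and 91.6% in the subcluster, 17.7% and 14.95% in other neurons, and 2.94% and 3.98% in oligodendrocytes.

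**Figure D1:**
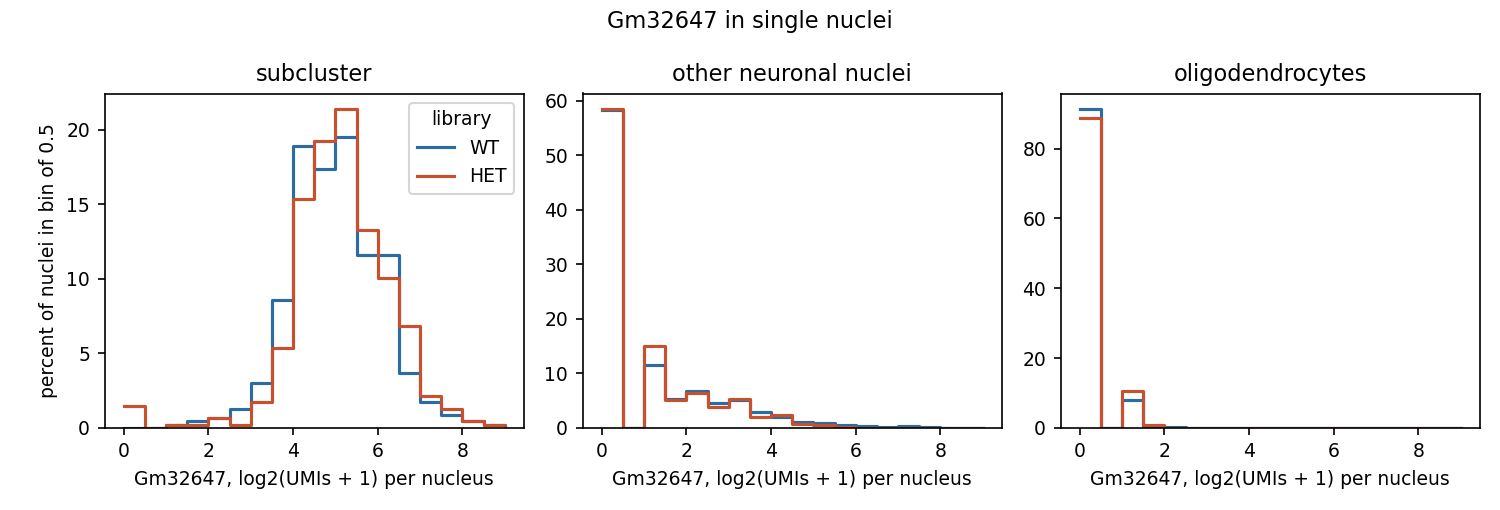
Percent of nuclei (y axis, bins of 0.5) by *Gm32647* level per nucleus, as log2(UMIs + 1) (x axis), in the subcluster, the other neuronal nuclei and the oligodendrocytes, with 1 line per library. The subcluster peaks near its medians of 30 (WT) and 34 (HET) UMIs, while the other 2 panels peak at 0.

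A high level of *Gm32647* was not limited to the subcluster. Of the neuronal nuclei with at least 10 of its UMIs, 45.6% in the WT library and 56.2% in the HET library were members. The deposited cluster neuron.6 was the only other neuronal group with a level of that order, at 5132 CPM [5024, 5242] over 120 WT nuclei and 4124 CPM [3476, 4858] over 5 HET nuclei. Next below it were neuron.7, at 798 CPM (46 WT nuclei) and 536 CPM (33 HET nuclei), and in the HET library subcluster 12 of neuron.2, at 573 CPM over 141 nuclei. In the most alike group, subcluster 3 of neuron.1, it was 306 CPM and 376 CPM over 700 and 798 nuclei, and the remaining large neuron.1 subclusters 0, 1, 9 and 10 lay between 76.9 and 295 CPM. Likeness was the Pearson correlation of log2(CPM + 1) over the 15352 genes with at least 200 UMIs in neuronal nuclei, with both libraries summed, and was 0.992 for subcluster 3, 0.987 for subcluster 10 and 0.986 for subcluster 1, against 0.895 for neuron.6.

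**Figure D2:**
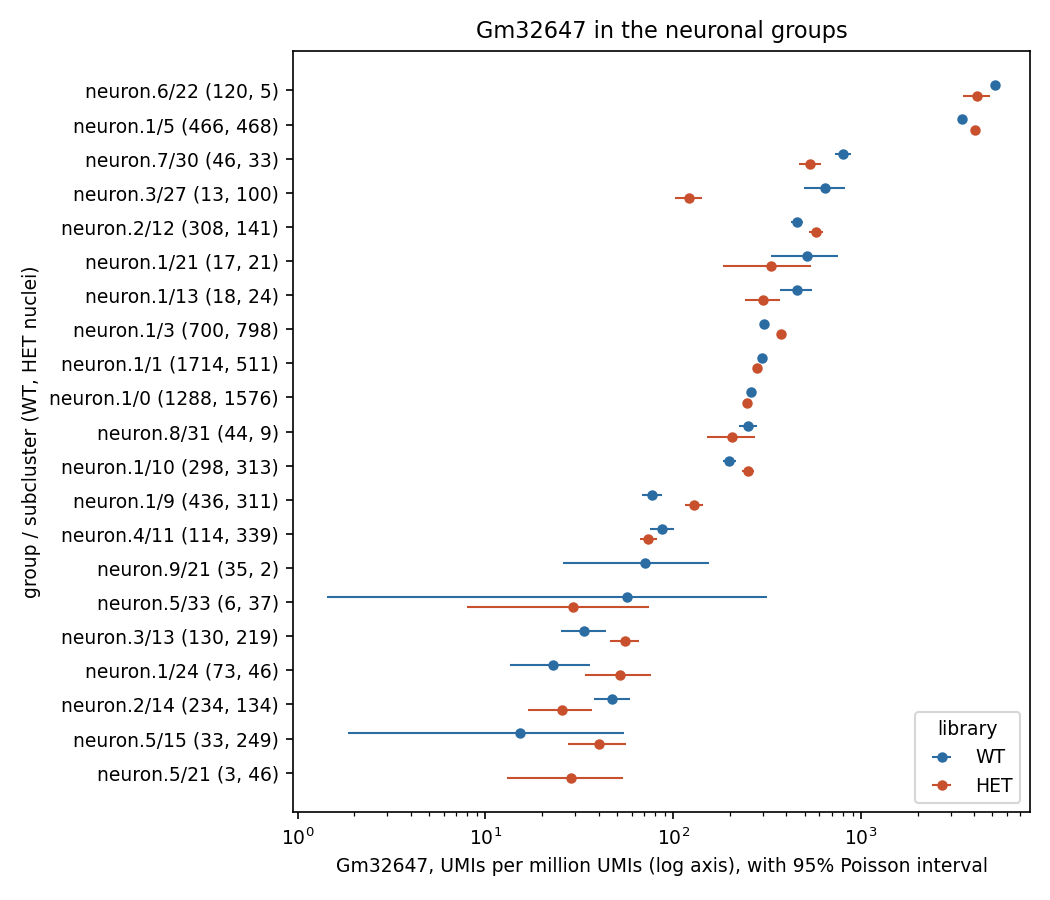
*Gm32647* level (x axis, CPM, log axis) in each deposited neuronal group of at least 30 nuclei (y axis, with the WT and HET nuclei in brackets), points with 95% Poisson intervals. Subcluster 5 of neuron.1 (3424 and 4023 CPM) and neuron.6 stand apart to the right, and the highest of the other points is neuron.7 in the WT library, at 798 CPM.

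The raised level extended along chromosome 7 beyond *Gm32647* (this stretch was chosen after its values were seen). *Gm44601*, the minus-strand lincRNA at chr7:94368983-94372572, was 7.54-fold (WT) and 14.5-fold (HET) its level in the other neurons. *Tenm4*, which encodes teneurin-4, an adhesion protein of the nervous system, lies downstream and was at 922 CPM in WT and 1041 CPM in HET members, against 558 and 593 CPM in other neurons. A like level of *Tenm4* was not particular to the subcluster. It was 977 and 1182 CPM in neuron.6 (120 and 5 nuclei) and 918 and 946 CPM in subcluster 13 of neuron.3. The latter held 33.6 and 55.1 CPM of *Gm32647*. In subcluster 3 of neuron.1 *Tenm4* was at 539 and 617 CPM. *Gm26862*, upstream, was at 42.9 and 73.3 CPM against 26.7 and 40.4 CPM. Of the 11 measured genes between *Gm26862* and *C230038L03Rik* (chr7:93006982-96951886), 7 were higher by at least 0.4 on the log2 scale in both libraries. None of the 10 genes before this stretch and none of the 13 after it were. Over the 15139 genes with at least 20 UMIs in the subcluster that passed the filter for both libraries the share was 1.8%. The 7 genes overlap each other. *Gm44601* lies within *Gm32647*, *Gm9934* within *Gm26862*, and *Gm15414* and *Gm15413* within *Tenm4*, each on the opposite strand. Their reads could not be told apart with certainty, so the 7 are not separate observations to set against that share.

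**Figure D3:**
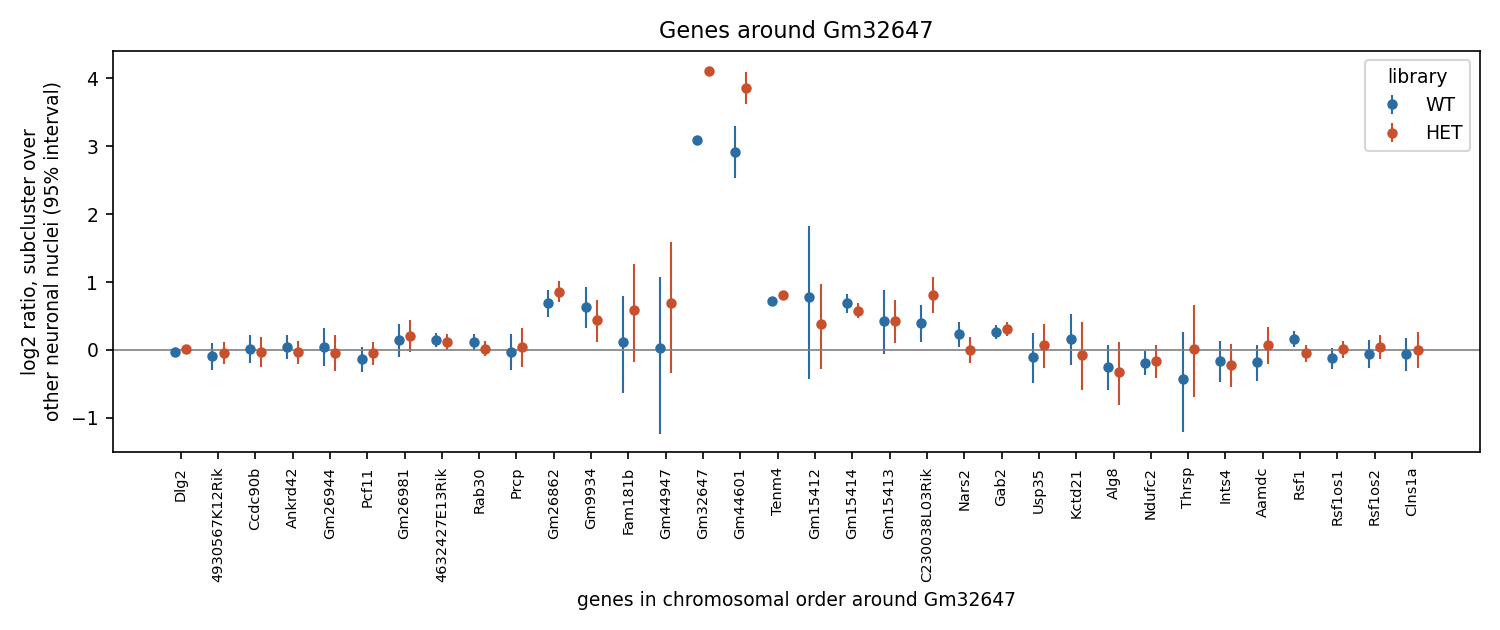
Log2 ratio of summed CPM, subcluster over other neuronal nuclei (y axis, 95% intervals), for the measured genes around *Gm32647* in chromosomal order (x axis), 1 colour per library. *Gm32647* and *Gm44601* stand at 2.92 or more, *Tenm4* at 0.72 and 0.81, and no gene to either side of the stretch reaches 0.4 in both libraries.

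Apart from this locus, few genes set the nuclei apart. Of 16555 genes with at least 50 UMIs in the neuronal nuclei of each library, 20 (0.121%) were past 2-fold higher in the subcluster in both libraries and 152 (0.918%) past 2-fold lower. In 4 of the 20 a single nucleus held at least 50% of the gene's UMIs in a library. Only 7 of the 20 had 50 UMIs or more in the subcluster of each library, namely *Gm32647*, *Gm44601*, *Gm21847*, *Gm30613*, *Dqx1*, *Hydin* and *Npas1*.

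*Gm21847* and *Gm30613* are antisense transcripts that overlap on opposite strands of chromosome 5 (15516489-15656679 and 15538002-15605066). *Gm21847* was at 15.7 CPM in WT and 24.0 CPM in HET members, which was 13.6-fold and 16.4-fold the rest. It came from few nuclei, 28 WT and 31 HET members (6.01% and 6.62%, against 0.672% and 0.690% of other neurons). *Gm30613* was found in 25 and 34 members, of which 18 and 27 also held *Gm21847*. The pair was thus found in a small fraction of the subcluster. Counting by strand is not stated, so reads of this pair also could not be told apart with certainty.

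*Dqx1*, which encodes a putative helicase, was raised by a single nucleus in each library, which held 77.1% of its 205 WT UMIs and 88.5% of its 78 HET UMIs. *Hydin*, a component of motile cilia, was 2.74-fold and 2.17-fold the rest, with 110 and 84 UMIs. The smaller of its log2 ratios, 1.12, was 0.71 with each nucleus weighing the same and 0.84 without the nucleus with the most UMIs. *Npas1*, a basic helix-loop-helix transcription factor of inhibitory neurons, was 2.53-fold and 2.11-fold, in 13.9% and 15.2% of members against 7.84% and 7.68% of other neurons. In oligodendrocytes it was found in 0.795% and 1.35%. Its smaller log2 ratio, 1.08, was 0.79 with each nucleus weighing the same and 0.70 against other neuron.1 nuclei, so that both genes were under 2-fold in some settings. The next genes by the same measure were near 2-fold. Among them *Grin2c*, an NMDA receptor subunit, stood at log2 ratios of 1.41 (WT) and 0.92 (HET). *Npsr1*, the neuropeptide S receptor, stood at 0.92 and 0.95, and *Ptpro*, a receptor tyrosine phosphatase, at 0.88 and 0.91. *Colq*, the collagen tail that anchors acetylcholinesterase, stood at 1.14 and 0.93. *Frem1*, an extracellular matrix gene (0.96 and 1.53), *Dchs2*, a large cadherin (0.90 and 0.88), and the non-coding *Gm12128* (0.94 and 1.16) and *Gm49267* (0.88 and 1.08) completed the 15 highest among genes with at least 50 UMIs in the members of each library.

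The genes lowest against the other neurons included both defining genes of serotonin neurons. *Tph2*, which makes serotonin, had 3 WT and 6 HET UMIs in the subcluster (log2 ratios of -4.05 and -3.86 to other neurons). *Slc6a4*, the serotonin transporter, had 4 and 2 UMIs (-3.45 and -3.94). The reference for these ratios is all other neuronal clusters together. Against the other large neuron.1 subclusters, each weighing the same, *Slc6a4* was no longer lower. *Maf*, a transcription factor of several interneuron types, was at 25.5 and 18.9 CPM against 111 and 79.0 CPM in the other neurons. *Bmp6*, a secreted growth factor (-2.52 and -2.12), *Fam107b* (-2.27 and -3.04), the desmosomal gene *Pkp1* (-2.57 and -2.15), *Corin*, a protease (-2.19 and -1.99), and *4930447N08Rik* (-2.01 and -2.31) made up the rest of the 8 lowest among genes with at least 200 UMIs in the other neurons of each library. *Rorb*, a nuclear receptor of dorsal hindbrain neurons, was the lowest of the hindbrain lineage factors with at least 20 UMIs in the subcluster (-1.50 and -1.54). *Calb1*, which encodes the calcium-binding protein calbindin, was the lowest of 3 calcium-binding proteins (-1.78 and -2.46).

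The general neuron label held. *Rbfox3*, which encodes the neuronal nuclear protein NeuN, was found in 66.5% of WT and 74.6% of HET members, against 70.2% and 79.7% of other neurons and 4.66% and 10.1% of oligodendrocytes. *Snap25*, a protein of synaptic vesicle release, was found in 95.5% and 97.0% of members, and in 28.8% and 36.1% of oligodendrocytes. At 1000 UMIs per nucleus the shares for *Snap25* were 43.0% and 45.1% in members against 11.7% and 14.3% in oligodendrocytes. The authors' reference label called all 934 nuclei neurons.

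No single transmitter described the nuclei. *Slc17a6*, the vesicular glutamate transporter VGLUT2, was found in 42.5% (WT) and 44.9% (HET) of members and *Slc6a5*, the glycine transporter GlyT2, in 44.8% and 37.4%. *Gad2* was found in 41.0% and 43.2%, *Gad1* in 23.2% and 26.3%, and *Slc32a1*, which loads GABA and glycine into vesicles, in 29.6% and 21.4%. *Slc17a7* and *Slc17a8*, the other glutamate transporters, were found in 4.27% of members or fewer. The corresponding shares of oligodendrocytes, a background for free RNA, were 12.4% and 12.2% for *Slc17a6*, 6.08% and 6.41% for *Gad2*, and 10.4% and 7.42% for *Slc32a1*. At 1000 UMIs per nucleus *Slc32a1* was found in 3.77% and 2.63% of members and in 3.83% and 2.58% of oligodendrocytes, so its shares cannot be read above background. The same measure gave 7.87% and 9.37% of members for *Slc17a6*, against 4.53% and 4.33%, and 9.45% and 6.84% for *Slc6a5*, against 2.56% and 1.80%. For *Gad2* only the comparison at unequal depth is given here, and for *Gad1* none.

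Of the WT members, 24.0% held UMIs of Slc17a transporters only, 45.7% of *Gad1*, *Gad2*, *Slc32a1* or *Slc6a5* only, 20.6% of both kinds and 9.66% of neither. The HET shares were 29.1%, 44.7%, 19.0% and 7.26%. Among oligodendrocytes 10.1% (WT) and 12.2% (HET) held the glutamatergic kind only and 20.8% and 16.5% the inhibitory kind only, so that part of this split is at the level of background, and *Slc32a1* counts in it although its share was not above background. In other neurons 24.5% and 31.7% held the glutamatergic kind only, and 42.6% and 37.5% the inhibitory kind only. A stricter rule asked for 5 or more UMIs of a kind and 5-fold or more over the opposite kind. Under it 111 WT and 102 HET members were inhibitory and 13 and 19 were glutamatergic, against 0 and 0 inhibitory and 2 and 0 glutamatergic oligodendrocytes. The remaining 342 WT and 347 HET members were left unassigned. The inhibitory shares of members were 23.8% and 21.8%, against 17.6% and 13.9% of other neurons. The glutamatergic shares were 2.79% and 4.06%, against 2.14% and 4.18%. *Gm32647* was high in both kinds: 3091 CPM in the 111 and 3380 CPM in the 102 inhibitory members, and 3776 CPM and 3069 CPM in the glutamatergic members. Other neurons of the same kinds held between 161 and 370 CPM.

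By their median, general neuron genes were at the level of the remaining neurons, and several groups that mark particular neurons were lower. The median log2 ratio of the 8 general neuron genes was 0.06 (WT) and 0.07 (HET), against a median of -0.02 in both libraries over all 15206 genes with at least 20 UMIs in the subcluster. By the smaller of both libraries' log2 ratios *Rbfox3* was the lowest of the 8, at -0.45, and *Celf4* the highest, at 0.30. Hox genes, which set position along the hindbrain, were lower in both libraries for 10 of 11 measured (medians -0.23 and -0.52), against 34.6% of all genes measured. The exception was *Hoxd3* (0.13 and 0.33). GABA-A receptor subunits were lower in both for 7 of 12, with *Gabra4* lowest (-1.35 and -1.10). Markers of motor neurons were lower in both for 3 of 4 (medians -0.92 and -0.61), of cerebellar granule cells for 5 of 6 (-0.31 and -0.78) and of Purkinje cells for 3 of 5 (-0.22 and -0.97). All 10 oligodendrocyte markers were lower in both libraries than in other neurons, with a summed level of 504 (WT) and 616 (HET) CPM in the subcluster, 626 and 781 CPM in other neurons and 18096 and 20505 CPM in oligodendrocytes. The 10 astrocyte markers summed to 924 and 882 CPM in the subcluster, against 909.5 and 969.6 CPM in other neurons.

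The members differed among themselves in *Gm32647*. At a resolution of 0.4, 720 of the 934 nuclei remained together, in a cluster of 725 nuclei, and held 4292 CPM (355 WT) and 5157 CPM (365 HET) of it. The remaining 214 joined a large neuronal cluster of 7205 nuclei and held 1786 CPM (111 WT) and 1611 CPM (103 HET), still above every group but neuron.6. These 214 were deeper, with median UMIs of 15601 and 14598 against 8807 and 8856. *Gad2* was at 83.7 and 91.2 CPM in the 720 and at 52.4 and 49.8 CPM in the 214. *Tenm4* was also higher in the 720, at 988 and 1157 CPM in the 720 and at 796 and 793 CPM in the 214. At a resolution of 1.5, 91.9% of the members were in 1 cluster. In the deposited clustering of the log-normalised counts, and not of the SCTransform residuals, the same nuclei were spread over 10 clusters, of which the largest took 32.8%.

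The subcluster was recovered in like numbers from both libraries. It made up 5.03% [4.60, 5.50] of WT nuclei and 5.19% [4.74, 5.67] of HET nuclei, a ratio of 1.03 [0.905, 1.17]. As a share of neuron.1 nuclei it was 9.26% and 11.5%, a ratio of 1.24 [1.09, 1.41], since the HET library held fewer other neuron.1 nuclei (subcluster 1 had 1714 WT and 511 HET nuclei). Depth was alike, with median UMIs of 9799 (WT) and 9761 (HET) and totals of 5615845 and 5335993. Other values moved with genotype. Ribosomal protein UMIs had a median of 0.501% in WT and 0.316% in HET members, mitochondrial UMIs of 0.199% and 0.259%, and the doublet score of 0.199 and 0.136, and their part in the differences below was not tested. The reference label called 1 WT and 20 HET members activated neurons, 0.215% [0.00543, 1.19] and 4.27% [2.63, 6.52], while among other neurons it called 1.203% and 5.10%. Of 23 cell barcodes that occurred in both libraries, 3 belonged to a member in 1 of them, and none to a member in both.

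*Scn1a* itself was not lower in the HET nuclei. It was at 429 CPM [412, 447] in WT members (2410 UMIs) and at 488 CPM [470, 508] in HET members (2606 UMIs), a log2 ratio of 0.19 [0.11, 0.27]. Other neurons gave 431 and 493 CPM, a log2 ratio of 0.20. The counts join both alleles and do not read the changed base, so they do not check the genotype label. *Scn2a* (0.01) and *Scn8a* (-0.10), which encode the other main sodium channels of central neurons, had log2 ratios near 0.

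Of 10374 genes with at least 100 UMIs in the subcluster, 109 (1.05%) were past 2-fold higher in HET members and 182 (1.75%) past 2-fold lower. Each of the 291 had a counting interval that excluded 0. At 100 UMIs or more any ratio past 2-fold has such an interval here, so the intervals add no check. When ratios were instead set to a median of 0 over genes with at least 200 UMIs, which moves them by 0.06, the counts were 129 higher and 140 lower. Of the 106 higher genes with a position in the annotation, 71.7% were not protein-coding, against 16.8% of the 179 lower genes and 9.70% of all genes tested that have one. In other neurons 106 of the 109 and 180 of the 182 had the same sign, and 58 and 59 were past 2-fold there too. These counts compare 2 libraries, and both sets of nuclei come from the same ones.

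The genes with the highest HET over WT ratios were mainly non-coding. *Gm16892*, an antisense transcript, had 16 WT and 91 HET UMIs in the subcluster, a log2 ratio of 2.58 [1.81, 3.45], with 2.87 in other neurons. *A230059L01Rik* (20 and 99 UMIs) stood at 2.38 and *Tex47* (26 and 105) at 2.09. *Gm47272* (28 and 104) stood at 1.97, *Gm13415* (29 and 99) at 1.85, *Gm17168* (31 and 103) at 1.81 and *Gm16185* (53 and 164) at 1.70. The coding gene *5530401A14Rik* rested on the most UMIs of these, 376 and 1172, and was at 67.0 and 220 CPM, a log2 ratio of 1.71 [1.55, 1.89]. *Hist1h1e*, a linker histone, had 21 and 88 UMIs and a log2 ratio of 2.14 [1.44, 2.90]. In other neurons these genes had log2 ratios between 1.13 and 2.87.

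*Gm44601* was among the 10 highest and lies inside the locus that marks the subcluster. It had 105 UMIs in WT and 393 in HET members, a log2 ratio of 1.98 [1.66, 2.30], and was found in 19.1% and 48.3% of them. *Gm32647* on the opposite strand had a log2 ratio of 0.23 [0.20, 0.26] in the same nuclei. In other neurons *Gm44601* stood at 1.04 and, without neuron.6, at 1.78 [1.398, 2.17]. The other transcripts of the stretch were at 0.77 [0.54, 1.01] for *Gm26862*, 0.68 [0.51, 0.84] for *Gm15414*, 0.18 [0.12, 0.23] for *Tenm4* and -0.04 [-0.44, 0.37] for *Gm9934*.

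Among the lowest genes, some were low across members and others came from 1 nucleus. *Ttr*, which encodes transthyretin and is made by the choroid plexus, had 1072 WT and 130 HET UMIs in the subcluster, a log2 ratio of -2.97 [-3.24, -2.71]. It was found in 86.5% of WT and 23.5% of HET members, and in like shares of other neurons (86.2% and 23.3%) and of oligodendrocytes (86.9% and 23.4%), and the part of free RNA in this was not tested. Of the 8 markers of ependymal and choroid plexus cells, *Ttr* included, 5 were measured, with a median log2 ratio of -0.06. Their summed level was 1203 CPM in WT and 1060 CPM in HET members. In other neurons it was 933 and 731 CPM, and in oligodendrocytes 781 and 161 CPM. The list includes *Htr2c*, which was higher in members than in other neurons, where the smaller of its log2 ratios was 0.56. *Folr1*, a choroid plexus marker, had 0 and 2 UMIs. *Mettl18*, a histidine methyltransferase, had 680 and 107 UMIs (-2.59 [-2.90, -2.30]) and the lincRNA *Gm36264* had 667 and 131 UMIs (-2.27 [-2.56, -2.00]), with -2.18 for both in other neurons. *1700120C14Rik* had 255 and 31 UMIs (-2.97), and *Tex22* had 109 and 16 (-2.69), of which 1 nucleus held 77.1% of those in WT. *Shoc1*, a meiosis gene, had 175 and 7 UMIs (-4.57), *Pole*, the catalytic subunit of DNA polymerase epsilon, 102 and 13 (-2.90), and *Gm31045* 97 and 14 (-2.72). The WT UMIs of these 3 came from 13, 28 and 15 members.

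The lowest value of all, *B530045E10Rik* at -6.15, rested on 149 WT UMIs of which 1 nucleus held 96.6%, against 2 HET UMIs. *Lgals9*, which encodes galectin-9 (185 and 26 UMIs, -2.76), had 72.4% of its WT UMIs in 1 nucleus and was at -1.21 without it. For 11 of the 182 lower genes and 1 of the 109 higher genes at least 50% of the UMIs on the high side were from a single nucleus. After removing, for each gene and library, the nucleus with the most UMIs, 162 of the 182 and all 109 were still past 2-fold.

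**Figure D4:**
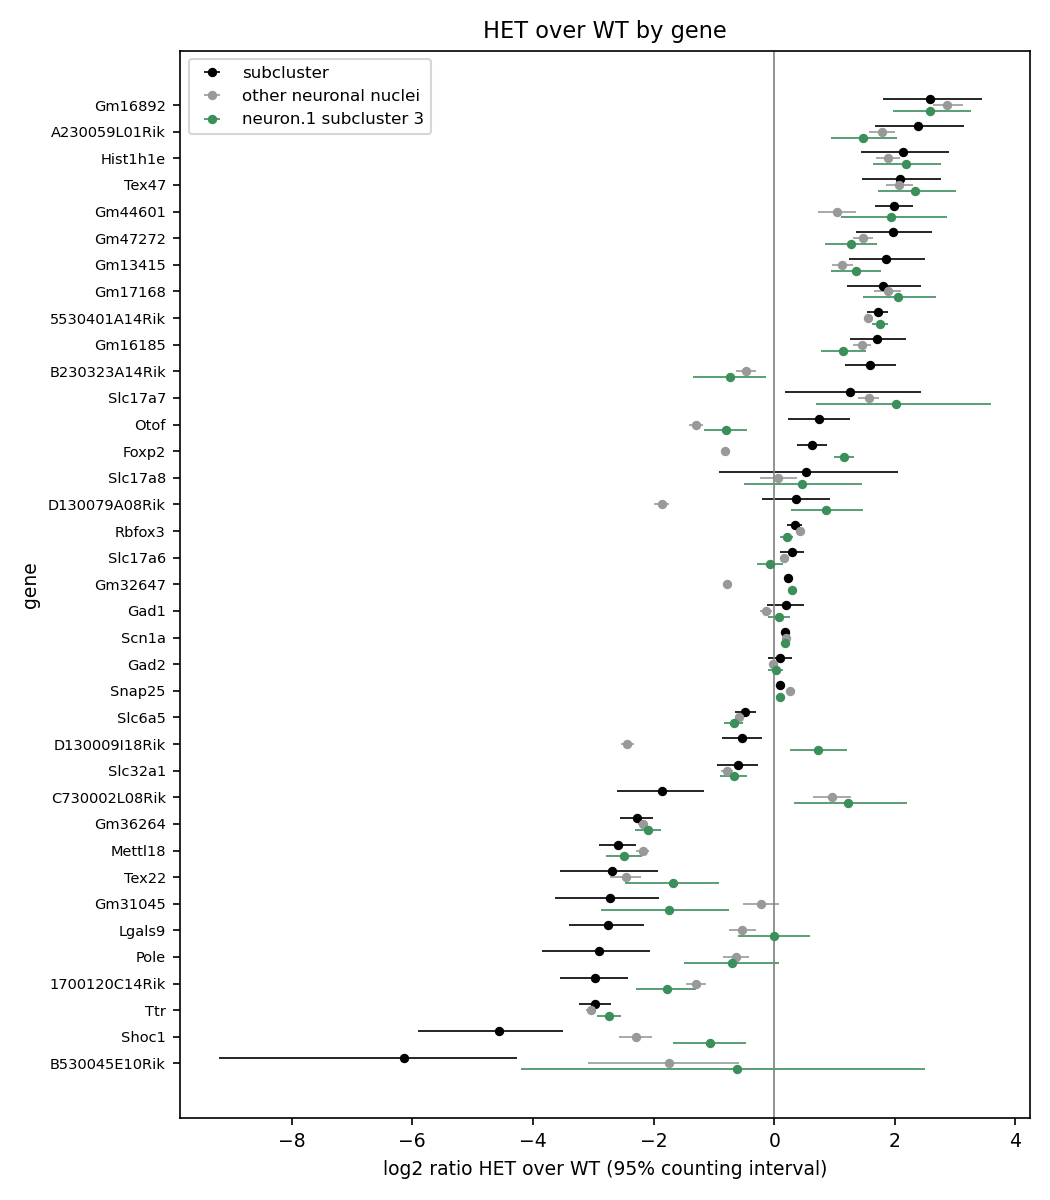
Log2 ratio HET over WT (x axis, 95% counting intervals) for the genes named here (y axis), in the subcluster, in all other neuronal nuclei and in subcluster 3 of neuron.1. The non-coding genes at the top and *Ttr*, *Mettl18* and *Gm36264* near the bottom lie on the same side of 0 in all 3 sets. *Gm32647*, *Foxp2* and *D130079A08Rik* are among the genes below 0 in the other neuronal nuclei alone.

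A further comparison asked whether the HET over WT ratio in the subcluster was that of other neurons. Intervals stood apart for 325 genes (3.13%) with a higher ratio in the subcluster and 363 (3.5%) with a lower one. The make-up of the other neurons differed between the libraries, with 120 WT and 5 HET nuclei in neuron.6, and without it the counts were 316 and 341 (chosen after seeing the data). *Gm32647* was at 0.23 in the subcluster, -0.78 in all other neurons, -0.11 without neuron.6 and 0.30 in subcluster 3 of neuron.1. *Foxp2*, a transcription factor of several brainstem neuron types, was at 0.62 [0.38, 0.87] in the subcluster, -0.82 in other neurons, 0.60 without neuron.6 and 1.15 in subcluster 3. The lincRNAs *D130079A08Rik* and *D130009I18Rik* were at 0.36 and -0.53 in the subcluster and at -1.87 and -2.44 in other neurons, but at 0.87 and 0.73 in subcluster 3. *Otof*, which encodes the calcium sensor otoferlin, was at 0.74 [0.23, 1.26] against -1.30 in other neurons, and -0.80 in subcluster 3. *B230323A14Rik* (1.58 against -0.47) and *C730002L08Rik* (-1.86 against 0.96) had much of their UMIs in 1 nucleus, 54.5% (WT) and 47.3% (HET) for the first and 72.6% (WT) for the second. Without the nucleus with the most UMIs in each library the first was at 1.80 and the second at -0.36. The other 4 of the 5 genes that differed most downward were among the lowest genes above, and stood in other neurons at -2.29 (*Shoc1*), -0.63 (*Pole*), -0.21 (*Gm31045*) and -1.74 (*B530045E10Rik*). Against subcluster 3 alone, intervals stood apart for 165 genes upward and 171 downward, with fewer UMIs behind them.

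Genes of the ribosome and of oxidative phosphorylation were lower in HET members. Of 81 measured ribosomal protein genes, which build the ribosome, 80 were lower, 74 of them with an interval below 0, and the median log2 ratio was -0.71 against -0.08 over all 15206 genes measured, of which 58.4% were lower and 20.9% had an interval below 0. *Rps19* was lowest (-1.28) and *Rps28* was the exception (0.02). Their summed level was 3995 CPM in WT and 2438 CPM in HET members. Of 78 genes of oxidative phosphorylation, which makes ATP in mitochondria, 76 were lower, with a median of -0.54. *Ndufb11*, a complex I subunit, was lowest (-1.32), and *Sdhd*, a complex II subunit, highest (0.15). Glycolytic enzymes were lower for 13 of 16 (median -0.37), with *Tpi1*, triosephosphate isomerase, at -1.06, and enzymes of the TCA cycle, closer to the share over all genes, for 15 of 20 (median -0.19), with *Cs*, citrate synthase, at -0.74. Other neurons gave medians of -0.86, -0.62, -0.32 and -0.17 for these 4 lists.

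The ratio followed gene length. The median log2 ratio was -0.51 for the 630 genes under 5 kb, -0.24 for 2700 genes of 5 to 20 kb, -0.07 for 4849 genes of 20 to 100 kb and 0.09 for 2079 genes over 100 kb. In other neurons the corresponding medians were -0.59, -0.27, -0.08 and 0.11. The part of length in the list values was not tested.

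Activity and stress genes had medians below that of all genes. Of 13 measured immediate early genes, which neurons switch on with activity, 10 were lower, with a median of -0.53, where 58.4% of all genes were lower. *Npas4*, an activity-dependent transcription factor, had 62 WT and 13 HET UMIs, a log2 ratio of -2.18 [-3.17, -1.30], and *Fos* had 24 and 10, at -1.19 [-2.42, -0.07]. *Nr4a3* stood at 0.32 on 16 and 19 UMIs. Heat shock and ubiquitin genes were lower for 14 of 16 (median -0.46), with *Dnajb1*, a co-chaperone, lowest at -1.17 and *Hsph1* highest at 0.49. In other neurons the median of the immediate early genes was -0.93, with 11 of 13 lower. That of the heat shock and ubiquitin genes was -0.54 there, with 14 of 16 lower. The reference label of activated neurons, by contrast, had gone to more HET than WT members.

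Hox genes had a median of -1.20 over 11 genes. Of these 10 were lower and 6 past 2-fold lower, against 58.4% and 4.08% of all genes. With a minimum of 100 UMIs per gene the median was -0.58. The other neurons had -0.99, with 11 of 11 lower. *Hoxd4* was lowest, with 57 WT and 12 HET UMIs (-2.17 [-3.21, -1.26]), *Hoxb5* had 51 and 19 (-1.35), *Hoxb6* 41 and 17 (-1.20) and *Hoxd3* 143 and 80 (-0.76). *Hoxa3* was the exception at 0.01, with 69 and 66 UMIs. The 25 Hox genes in the files summed to 156 CPM in WT and 81.9 CPM in HET members. Hox genes mark how far back in the hindbrain a neuron lies, and with 1 mouse of each genotype the tissue piece and the genotype cannot be told apart. Factors of the midbrain and rostral hindbrain were lower for 8 of 10, with a median of -0.16. None had an interval below 0 and 1 had an interval above 0, against 20.9% and 13% of all genes. *Lmx1a* was highest, at 1.04.

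GABA-A and metabotropic glutamate receptor genes were higher. All 12 measured GABA-A receptor subunits were higher in HET members, 10 of them with an interval above 0 (41.6% and 13% of all genes), with a median of 0.30 against 0.15 in other neurons, where 9 of the 12 were higher. *Gabra2* was at 127 CPM in WT and 162 CPM in HET members (0.36 [0.22, 0.51]). *Gabrq* was highest, at 1.60 on 8 and 23 UMIs, and *Gabrb1* lowest, at 0.11. All 6 measured metabotropic glutamate receptors were higher, with a median of 0.35 against 0.34 in other neurons, from *Grm7* (0.12) to *Grm4* (0.66). AMPA and NMDA receptor subunits were higher for 7 of 11, with a median of 0.11. Glycine receptor genes (0.08), Kv1 and Kv3 potassium channels (-0.11), calcium channels (-0.02) and genes of vesicle release (0.01) had medians near 0.

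Transmitter genes of inhibition differed among themselves. *Slc6a5* was at 123 CPM [114, 133] in WT and 88.5 CPM [80.7, 96.8] in HET members, a log2 ratio of -0.48 [-0.65, -0.31], with -0.58 in other neurons. *Slc32a1*, which could not be read above background in the members, was at -0.60 [-0.94, -0.26], with -0.78 in other neurons. *Gad1* (0.19 [-0.12, 0.50]) and *Gad2* (0.10 [-0.10, 0.30]) had intervals that included 0. *Slc17a6* stood at 0.29 [0.10, 0.49] and *Slc17a7* at 1.26 [0.18, 2.43] on 11 and 25 UMIs. Neuropeptide precursors were lower for 19 of 22 (median -0.37, with -0.69 in other neurons), and 6 of the 22 had an interval below 0. Over all genes 58.4% were lower and 20.9% had an interval below 0. The summed level of the precursors was 1271 CPM in WT and 1331 CPM in HET members. Among the lower ones were *Gal*, galanin, at -1.73 [-2.71, -0.85] on 49 and 14 UMIs, and *Penk*, proenkephalin, at -0.43 [-0.74, -0.13] on 223 and 157 UMIs. *Calca* was highest at 0.66.

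The genes that the study named from these libraries had, in the members, the direction under which it listed them, 34 of 34 lower (median -0.84, other neurons -0.92) and 21 of 21 higher (median 0.25, other neurons 0.41). Over all genes 58.4% were lower and 41.6% higher. The study chose those lists on these samples, so they are not independent evidence of a direction. *Ubb*, a ubiquitin gene that it listed both ways, was left out of both. Markers of oligodendrocytes were higher for 8 of 10 in HET members (median 0.30, other neurons 0.28). Of the 10, 5 had an interval above 0 and 1 an interval below 0, against 13% and 20.9% of all genes. *Mobp*, a myelin gene, was highest at 1.37 and *Mal* lowest at -0.90. The part of these markers in other values was not tested. The median of the 10 astrocyte markers was 0.09.

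**Figure D5:**
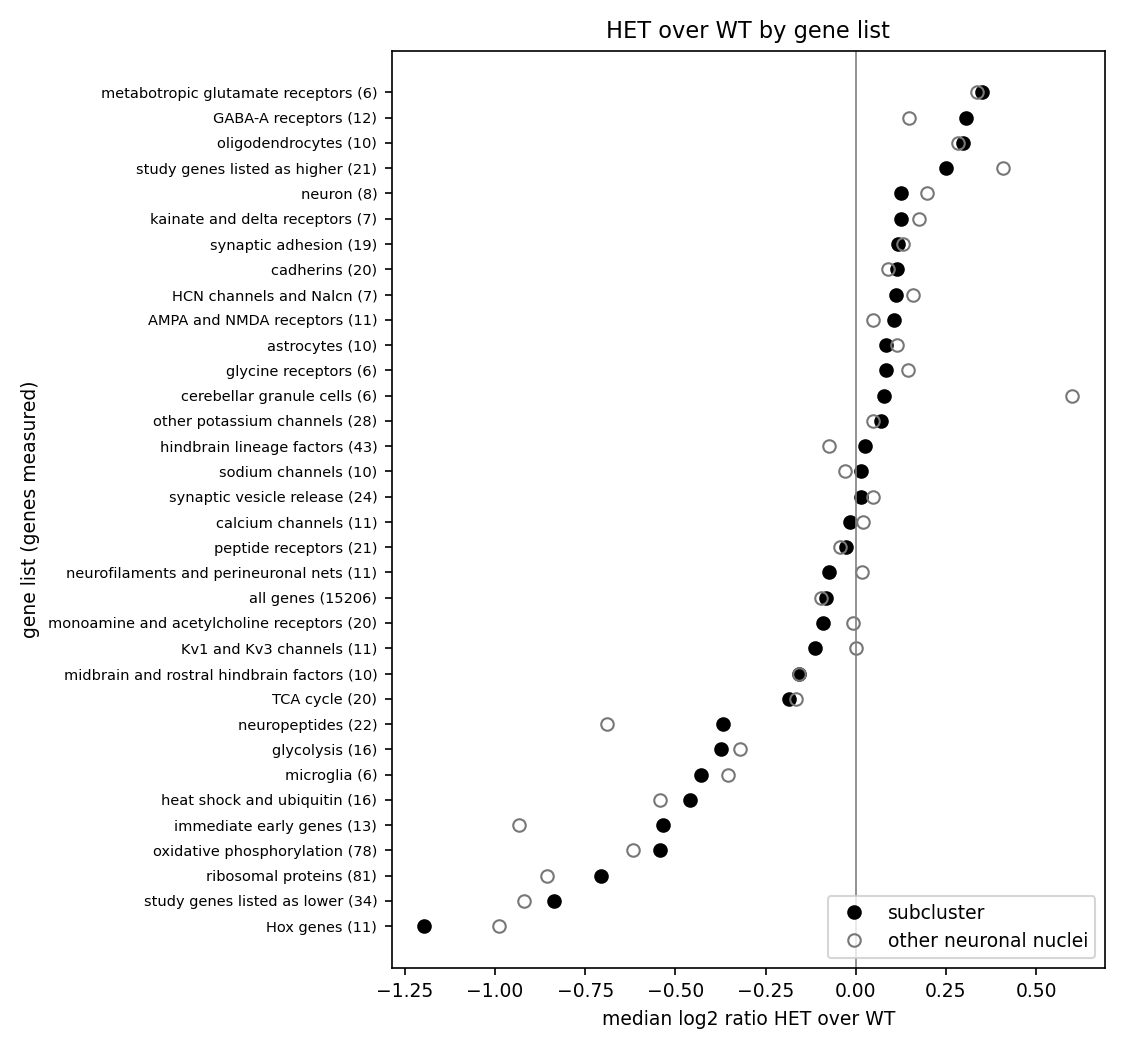
Median log2 ratio HET over WT (x axis) over the measured genes of each list with at least 6 of them (y axis, number of genes in brackets), in the subcluster (filled) and in the other neuronal nuclei (open). Hox, ribosomal protein, oxidative phosphorylation and immediate early genes lie below -0.5 in the subcluster, and GABA-A and metabotropic glutamate receptors lie at 0.30 and 0.35.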

How the data were processed

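Nuclei of the brainstem of 1 WT and 1 HET mouse were sequenced with 10x 3′ chemistry, aligned by the authors with Cell Ranger to its default mm10 reference and filtered in Seurat 4.1, per the labels (the Cell Ranger version is not given in the sources used here). The values used are UMI counts per gene and nucleus, deposited by the authors without normalization. The stated cuts removed nuclei with under 1000 genes or over 15% mitochondrial UMIs. The lowest recorded gene numbers were 990 (WT) and 991 (HET). Mitochondrial and hemoglobin genes and nuclei called doublets had also been removed. The paper lists further genes as filtered out, among them *Xist* and *Pgk1*, but both are in the counts used here. The deposited percent of ribosomal and mitochondrial UMIs, the doublet score and the cluster and reference labels were used as the authors gave them.

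UMIs were summed over the members and over all other neuronal nuclei of each library, and log2 ratios of CPM were taken without a pseudocount. A count of 0 was set to a floor of 3 UMIs and its ratio read as a bound. With 1 library per genotype no test was made. Shares at equal depth were computed exactly, as the chance that a draw of 1000 UMIs from a nucleus holds the gene, averaged over nuclei. GENCODE vM21 gave positions and sequences. Genes were named by a rule: the 15 highest and 8 lowest by the smaller of both libraries' ratios to other neurons, the 10 highest and 10 lowest HET over WT ratios, the 5 each way whose ratio differed most from that of other neurons, *Scn1a*, the neuron and transmitter genes, and the extremes of each list. Other genes were chosen after their values were seen, and members, lists and rules were chosen with earlier results of these data known. Computing was done with numpy 2.4.6, scipy 1.17.1, pandas 2.3.3 and matplotlib 3.10.9 under Python 3.11.15, and the scripts were tested on simulated data. Some items are not reported here.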

Additional observations from a re-analysis of the deposited data

Results flagged for a closer look

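For 5 genes HET over WT moved one way in the subcluster and the opposite way in the other neuronal nuclei, each with a counting interval that excluded 0, and the difference was not tested between mice. *Gm32647* was at 0.23 in the subcluster, -0.78 in all other neurons and -0.11 [-0.15, -0.08] without neuron.6. *Foxp2* was at 0.62, -0.82 and 0.60. *Otof* was at 0.74, -1.30 and -1.34 [-1.46, -1.22], and so kept its opposite sign without neuron.6. *B230323A14Rik* was at 1.58, -0.47 and -0.51, and *C730002L08Rik* at -1.86, 0.96 and 1.02. The subcluster's value for *C730002L08Rik* was -0.36 without the nucleus with the most UMIs in each library and -0.69 with each nucleus weighing the same.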

How the results depend on the processing

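No paired analysis was possible because the 2 genotypes share only 1 replicate number. Of 305 alternative list medians, 302 stayed within the rank interval of the main median over genes, or for all genes within a fixed margin. For the shortest lists that interval spans every gene of the list, so their medians could hardly leave it. Asking for at least 2000 UMIs per nucleus or for a neuron label removed no member, so those medians repeat the main ones. The count is therefore no measure of robustness. Ribosomal protein genes moved to -0.83 with each nucleus weighing the same and to -0.65 with the median ratio set to 0. Against other neurons, 42 higher and 255 lower genes were past 2-fold with a minimum of 20 UMIs, and 4 and 56 with 200. A threshold of 1.5-fold gave 119 and 426, other neuron.1 nuclei as the reference gave 56 lower, and neuron.1 subclusters of equal weight gave 34 higher and 80 lower. In a single library 129 (HET) to 173 (WT) were higher and 588 (HET) to 644 (WT) lower, since both libraries no longer had to pass. Without the nucleus with the most UMIs of each gene 9 were higher and 334 lower, an alternative chosen after seeing the data that lowers the subcluster by construction. With neuron.1 subclusters of equal weight *Slc6a4* (0.014) and *Fam107b* (0.10) were no longer lower, and the cause was not tested. For HET over WT, a minimum of 50 UMIs gave 228 higher and 332 lower, 200 UMIs gave 53 and 87, 1 UMI in each library gave 1687 and 1378, and 1.5-fold gave 397 and 1014. Each nucleus weighing the same gave 276 lower. Thinning to 2000 UMIs left 15 and 53, with fewer genes above the minimum. Intervals apart from subcluster 3 of neuron.1 alone, also chosen after seeing the data, numbered 165 and 171. In other neurons *D130079A08Rik* was at 0.48 without neuron.6 and at 0.87 in subcluster 3, and *D130009I18Rik* at 0.73 in subcluster 3. The share of members was 1.24 times as high in HETs among neuron.1 nuclei. No nucleus of the subcluster had under 2000 UMIs. Counting error limits single genes near 100 UMIs, and the spread between mice is unknown.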
